A study of Mus musculus with 21 samples.

Results

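Quadriceps muscle of trained mice was compared between 0 h and 6 h after a single bout of exhaustive exercise. These libraries, 3 of each time point, were taken by their labels and made up 6 of the 21 libraries of the series. Bulk tissue of wildtype male C57/Bl6 mice, aged 22 to 26 weeks, was profiled by RNA-seq. The series had 7 groups of 3 libraries, namely sedentary muscle, and untrained and trained muscle at 3 times after the bout (0 h, 6 h or 72 h). Trained mice had free access to running wheels for 12 weeks and then ran on a treadmill until exhaustion, so that both time points carried the training and the bout and differed in the time since it. Untrained mice ran the same treadmill protocol to exhaustion without the wheel period, and sedentary mice neither trained nor ran. The paper reports better performance of trained mice in such tests, so the amount of running in the bout may have differed between the states.

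The deposited values of trained 0 h replicate 1 matched those of untrained 0 h replicate 1 exactly, in each of 53738 gene symbols (25037 of them above 0). Its true group was not given, and the comparison is therefore also given without this library, which leaves n = 2 at 0 h. The clock time of sampling was not given either, so that an effect of the time of day and one of recovery cannot be told apart. Values were in TPM, transcript abundances scaled to one total per library. They do not preserve sequencing depth, which is thus unknown, and precision rests on 3 libraries per time point. The labels do not say whether these came from separate animals, so that p values measure the spread between libraries. The share of all TPM that came from the mitochondrial genome was 37.7% to 39.8% at 0 h and 45.7% to 47% at 6 h. It was 42.2% to 46.9% in sedentary muscle and 46.7% to 48% in trained muscle at 72 h. TPM sum to about the same total in every library, so all other genes are scaled down accordingly at 6 h relative to 0 h.

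Exhaustive running brings calcium, mechanical load, heat and energy stress to a muscle fibre. Immediate early genes are transcribed within minutes of such stimuli from pre-assembled factors, and their short-lived mRNAs encode transcription factors. Chaperones of the heat shock response are switched on by heat shock factor, which binds heat shock elements in their promoters. A later wave in muscle centres on the coactivator PGC-1α, which works with estrogen-related receptors (ERR) and PPAR factors on genes of mitochondria and fuel use.

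Most immediate early transcription factors and the chaperone genes Dnajb1, Hspa1b and Hspa1a were high at 0 h and far lower at 6 h. Ppargc1a, which encodes PGC-1α, had the largest rise of the protein-coding genes called. Of 11779 genes that averaged 1 TPM or more across these 6 libraries, 186 rose (1.58% of those tested) and 608 fell (5.16%) by at least 1.5-fold with an adjusted p below 0.05 (limma with Benjamini-Hochberg adjustment). Without the shared library, 149 rose (1.26%) and 566 fell (4.81%), and 130 of the 186 and 482 of the 608 were called again. The median log2 fold change of all tested genes was -0.15. After median-of-ratios scaling, which moved that median to -0.01, 315 genes rose (2.68%) and 358 fell (3.05%), and 184 of the 186 and 358 of the 608 were among them. When TPM were rescaled without the mitochondrial genome and the 10 highest genes, 517 rose and 407 fell, so that the excess of falls over rises depended on the scaling. On the log2(TPM + 0.5) scale of the fit, without rescaling, 48 called protein-coding genes fell by at least 4-fold and 1 rose by as much. The added 0.5 TPM compresses changes of low genes. By the ratio of mean TPM, Cyp26b1 (5.14-fold), Sln and Serpinb8 were among others that rose by more than 4-fold.

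**Figure D1:**
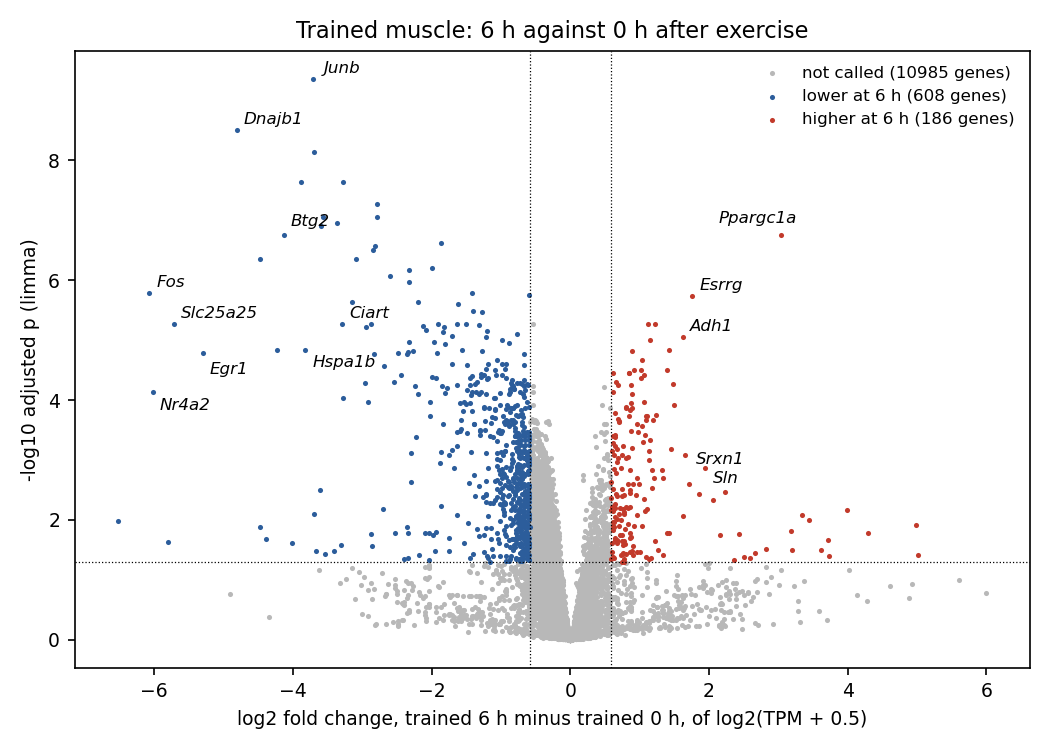
Log2 fold change from 0 h to 6 h in trained muscle (x axis, 6 h minus 0 h on log2(TPM + 0.5)) against -log10 of the adjusted p (y axis) for 11779 genes, with dotted lines at the thresholds. Fos, Nr4a2, Slc25a25 and Egr1 lie furthest to the left among labelled genes, between -6.07 and -5.30, and Ppargc1a lies furthest to the right at 3.04.

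Promoter sequences of 3 genes are shown because their genes stand for the groups described here, with capitals for the letters of a known response element. Each is the 150 bases before the annotated start site, read 5′ to 3′ on the strand of the gene from GRCm39 with start sites of GENCODE M39. Hspa1b, at chr17:35178215-35178364 on the minus strand, is shown with its heat shock element. Ciart, at chr3:95789557-95789706 on the minus strand, is shown with its E-boxes, the letters bound by clock factors. Ppargc1a, at chr5:51711265-51711414 on the minus strand, is shown with the cAMP response element (CRE) bound by CREB.
Hspa1b: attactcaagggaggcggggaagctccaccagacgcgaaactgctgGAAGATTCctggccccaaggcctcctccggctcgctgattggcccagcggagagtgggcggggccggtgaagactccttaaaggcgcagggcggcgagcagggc
Ciart: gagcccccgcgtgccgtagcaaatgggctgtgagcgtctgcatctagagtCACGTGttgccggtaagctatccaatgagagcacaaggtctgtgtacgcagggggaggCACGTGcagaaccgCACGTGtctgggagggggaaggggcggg
Ppargc1a: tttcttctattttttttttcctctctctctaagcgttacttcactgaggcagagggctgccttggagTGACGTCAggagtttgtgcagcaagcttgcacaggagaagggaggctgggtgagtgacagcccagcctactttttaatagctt

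The letters GAANNTTC, CACGTG and TGACGTCA, and those of 2 further elements, were searched on both strands from 250 bases before to 50 bases after the start site. The heat shock element stood at -104 in Hspa1b. Its near-identical neighbour Hspa1a had the same letters at the same distance, and 149 of the 150 bases were equal. The element was in 11 of 32 promoters of the heat shock chaperone list (34.4%) and in 5.96% of the promoters of 9728 tested protein-coding genes. E-boxes stood at -100, -42 and -28 in Ciart, were in 7 of 19 promoters of the clock list (36.8%) and in 10.6% of those of tested genes. The CRE stood at -83 in Ppargc1a, which was the 1 promoter with it among 20 of the PGC-1 and ERR list (5%). It was in 3.33% of the promoters of tested genes. Of the protein-coding genes that fell 6.69% had it, and of those that rose 0.719% (1 of 139). TGANTCA, the AP-1 site, was in 5.12% of the promoters of tested genes, 5.23% of those that fell and 7.91% of those that rose, and TCAAGGTCA, bound by ERR factors, was in 0.339%, 0% and 1.44%. A match gives letters only and does not show that a factor was bound.

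Immediate early transcription factors fell together. Of 25 tested members of this list, 22 fell and 0 rose, with a median log2 fold change of -2.29 against -0.15 over all genes. The same counts were found without the shared library, and 21 fell after median-of-ratios scaling, where Egr2 dropped below the expression filter. In 21 of the 22, the 6 h libraries all lay below the 0 h libraries, which 34.6% of all tested genes did; 6.59% lay above. The 3 members without a call were Srf, Cebpd and Myc, with log2 fold changes of -0.52, -0.34 and -0.10.

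Fos, a subunit of the AP-1 factor, was at 88.9, 128 and 95 TPM in the 0 h libraries and at 1.22, 0.938 and 0.968 TPM in the 6 h libraries. The groups were far apart, with mean TPM 100-fold higher at 0 h, and the log2 fold change was -6.07 ± 0.49 (SE, adjusted p = 1.63e-06, limma). Sedentary libraries held Fos at 0.32, 0.588 and 3.44 TPM, a range that included all 3 libraries of 6 h. Its partner Junb went from 54.1, 54.5 and 51.3 TPM to 3.89, 3.41 and 3.56 TPM, which was the call with the smallest adjusted p among the named genes (log2 fold change -3.71 ± 0.13, adjusted p = 4.34e-10, limma). In sedentary muscle Junb was at 3.84, 3.33 and 3.55 TPM, again close to the 6 h libraries. Further AP-1 members fell, with log2 fold changes of -3.69 for Fosb, -3.27 for Fosl2 and -1.90 for Jun. Fosb was at 4.87, 8.11 and 6.92 TPM at 0 h and at 0.0467, 0.0336 and 0.0416 TPM at 6 h, where the added 0.5 TPM compresses the log2 value, and its mean TPM was 163-fold higher at 0 h.

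Nr4a2, an orphan nuclear receptor, was at 70.6, 101 and 101 TPM at 0 h and at 1.42, 1.48 and 0.213 TPM at 6 h. Its libraries did not overlap between the time points, although the values at 6 h spread widely (log2 fold change -6.02 ± 0.75, adjusted p = 7.29e-05). Nr4a1 of the same family fell from 169, 200 and 183 TPM to 10.7, 15.5 and 20.1 TPM, which lay below the sedentary libraries at 23.1, 20.7 and 30.9 TPM. The third member, Nr4a3, fell less, from 4.41, 6.91 and 5.85 TPM to 2.76, 1.34 and 1.63 TPM, and all libraries of 6 h were still above the sedentary ones at 0.0705, 0.396 and 0.115 TPM. The log2 fold changes of these receptors were -3.57 ± 0.22 for Nr4a1 and -1.39 ± 0.26 for Nr4a3.

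Egr1, a zinc finger factor of the same early wave, was at 56.6, 56.9 and 63.6 TPM at 0 h and at 1.86, 0.715 and 0.699 TPM at 6 h (log2 fold change -5.30 ± 0.55). The Krüppel-like factors Klf4 and Klf2 fell as well, with log2 fold changes of -3.88 and -3.60. Atf3, a stress-induced member of the ATF family, did not separate cleanly. It was at 36.3, 55 and 27 TPM at 0 h and at 32.5, 6.94 and 3.56 TPM at 6 h, so that replicate 1 of 6 h lay within the range of 0 h, and the fold change was called nonetheless (-1.94 ± 0.53, adjusted p = 0.0158). The call was lost without 0 h replicate 2 (-1.67), 6 h replicate 2 (-1.73) or 6 h replicate 3 (-1.29), and with only those 2 groups modelled (adjusted p = 0.155). Myc, a growth regulator, ranged from 1.01 to 1.63 TPM at 0 h and from 0.67 to 1.98 TPM at 6 h, and the groups overlapped (-0.10 ± 0.34, adjusted p = 0.856).

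Some genes that curb early signalling fell too, where 5.16% of all tested genes fell and 1.58% rose. In the list of MAP kinase phosphatases and mRNA decay factors, 6 of 14 tested members fell and 1 rose, also without the shared library and under median-of-ratios scaling. Btg2, which promotes deadenylation of mRNA and restrains growth, was at 57.9, 78.8 and 74.3 TPM at 0 h and at 4.96, 2.89 and 2.95 TPM at 6 h. The groups did not overlap (log2 fold change -4.13 ± 0.27, adjusted p = 1.77e-07), and 2 of the 3 libraries of 6 h lay within the sedentary range of 2.1 to 3.76 TPM. The phosphatase gene Dusp1 fell from 116, 124 and 122 TPM to 12.9, 13.8 and 14.5 TPM, and Zfp36, which destabilizes AU-rich mRNAs, from 19.6, 17.7 and 18.6 TPM to 3.22, 3.04 and 3.77 TPM. Neither gene had overlapping groups. Spry4, Zfp36l1 and Dusp8 fell by 1.43, 1.01 and 1.00 on the log2 scale. Dusp10, a phosphatase for stress kinases, rose by 0.72.

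**Figure D2:**
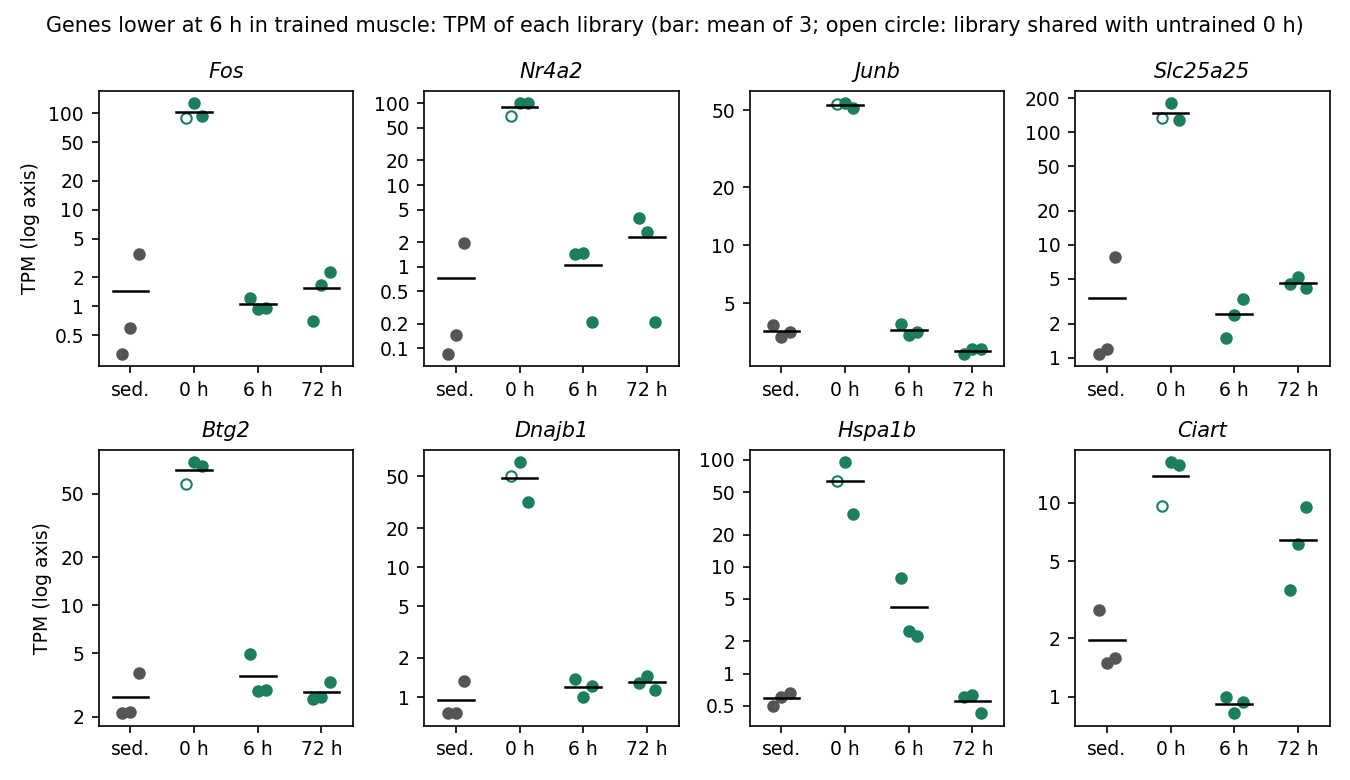
TPM of each library (log axis) for 8 genes that fell, in sedentary muscle and in trained muscle at 0 h, at 6 h and at 72 h. Bars mark the mean of 3 libraries, and the open circle is the library shared with untrained muscle; all 0 h libraries lie above all 6 h libraries in each panel, and Hspa1b is the panel where the 6 h libraries, at 2.25 to 7.92 TPM, lie clearly above the sedentary ones.

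Among other genes with the largest falls, Slc25a25, a calcium-regulated ATP-Mg carrier of the inner mitochondrial membrane, went from 134, 181 and 129 TPM to 1.5, 2.4 and 3.34 TPM. It was thus 61.3-fold higher at 0 h by mean TPM, with a log2 fold change of -5.71 ± 0.52, and its sedentary libraries ranged from 1.08 to 7.85 TPM. Apold1, an early response gene of endothelial cells, fell from 15.7, 9.03 and 23.5 TPM to 0.253, 0.142 and 0.186 TPM. Otud1, a deubiquitinase, fell from 62.7, 86.1 and 52.6 TPM to 7.36, 2.18 and 1.6 TPM. The groups did not overlap for any of these genes, whose adjusted p values were between 4.38e-07 and 1.46e-05 (limma).

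Heat shock chaperones fell in part, and the larger falls were among the strongly inducible ones. Of 32 tested members, 9 fell and 1 rose, with a median of -0.33, where 5.16% of all tested genes fell and 1.58% rose. The 9 became 7 without the shared library, 6 under median-of-ratios scaling and 5 after rescaling; Dnajb5 and Hsph1 were lost in each of these, Ahsa2 under both scalings and Dnajb4 after rescaling. Dnajb1, an HSP40 co-chaperone, was at 50.5, 64.1 and 31.5 TPM at 0 h and at 1.38, 1 and 1.21 TPM at 6 h. This put the 6 h libraries next to the sedentary range of 0.753 to 1.32 TPM (log2 fold change -4.81 ± 0.21, adjusted p = 3.15e-09).

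The stress-inducible HSP70 genes Hspa1b and Hspa1a did not come down as far. Hspa1b was at 63.3, 95.1 and 31.4 TPM at 0 h and at 7.92, 2.51 and 2.25 TPM at 6 h, and Hspa1a was at 46, 77.1 and 25 TPM and at 8.73, 4.03 and 4.14 TPM. All 6 h libraries were above the sedentary ones, which ranged from 0.501 to 0.659 TPM for Hspa1b and from 0.725 to 1.15 TPM for Hspa1a. The log2 fold changes were -3.82 ± 0.39 and -2.96 ± 0.35 (adjusted p = 1.43e-05 and 5.11e-05, limma). These genes are near-identical copies, so the split of reads between them is uncertain.

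The cytosolic HSP90 gene Hsp90aa1 fell from 109, 113 and 70.1 TPM to 57.5, 28.1 and 30 TPM, and the HSP40 gene Dnaja1 fell from 56.7, 64 and 48.3 TPM to 19.5, 24.2 and 11.7 TPM. Their sedentary libraries lay lower than every 6 h library, at 9.13 to 16.2 TPM and 8.53 to 10.9 TPM. Hspb1, a small heat shock protein that protects the cytoskeleton, was at 244, 282 and 155 TPM at 0 h and at 238, 140 and 126 TPM at 6 h. These groups overlapped (-0.45 ± 0.23, adjusted p = 0.161), and both were above the sedentary range of 71.1 to 85 TPM. Hspb7, the small heat shock protein of striated muscle, was the member that rose, from 74.9, 86.2 and 101 TPM to 284, 186 and 117 TPM (log2 fold change 1.08 ± 0.25, adjusted p = 0.00721). Serpinh1, the collagen chaperone HSP47 and not on this list, fell from 41.1, 62.3 and 34.7 TPM to 12.8, 13.6 and 11 TPM. It was named after its values were seen, as were Hsp90aa1, Hspb7, Klf2 and Fosl2.

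While 5.16% of all tested genes fell and 1.58% rose, 5 of 19 clock genes fell and 0 rose. They were Ciart, Per1, Nr1d1, Bhlhe40 and Nfil3, of which Nfil3 was lost without the shared library and under either scaling, while Nr1d2 was gained without that library and Cry2 rose after rescaling. Ciart, a repressor of CLOCK and BMAL1, was at 9.55, 16.1 and 15.6 TPM at 0 h and at 0.999, 0.826 and 0.938 TPM at 6 h. The groups were far apart (log2 fold change -3.29 ± 0.30, adjusted p = 5.45e-06), and the 6 h libraries lay below the sedentary ones at 1.5 to 2.81 TPM. Per1, a period gene that glucocorticoids and CREB also induce, fell from 13.8, 27.7 and 19.8 TPM to 3.86, 5.01 and 4.66 TPM, which stayed above the sedentary 1.19 to 2.73 TPM. Nr1d1, which encodes the repressor REV-ERBα, fell from 39.5, 25 and 34.6 TPM to 15.2, 13.7 and 9.97 TPM and was below the sedentary 51.2 to 54.8 TPM at both times. Dbp, a clock output gene, had overlapping groups, with 10.6 to 29.4 TPM at 0 h and 12.7 to 15.9 TPM at 6 h (-0.55 ± 0.39, adjusted p = 0.316), and Per2 also overlapped (-0.20 ± 0.28, adjusted p = 0.629). The shared library held the lowest 0 h value of Ciart, Per1, Dbp and Per2. Without it, Dbp was at 27 and 29.4 TPM at 0 h, above all 6 h libraries. Its log2 fold change was then -1.01 (adjusted p = 0.0662, limma), still without a call. As the clock time was not given, recovery and time of day cannot be told apart for these genes.

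Among protein-coding genes, the largest called rise was that of Ppargc1a. It was at 3.55, 4.84 and 4.33 TPM at 0 h and at 48.6, 29.1 and 39.2 TPM at 6 h. The groups were far apart, with a 9.19-fold higher mean at 6 h and a log2 fold change of 3.04 ± 0.20 (adjusted p = 1.77e-07, limma), and without the shared library it was 2.93. Sedentary libraries held 3.04 to 4.34 TPM and trained 72 h libraries 3.72 to 4.37 TPM, all below the 6 h libraries.

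Esrrg, which encodes the estrogen-related receptor ERRγ, was at 2.09, 2.83 and 3.52 TPM at 0 h and at 11.9, 10.9 and 9.15 TPM at 6 h. There was no overlap, and the log2 fold change was 1.76 ± 0.14 (adjusted p = 1.86e-06). Its relative Esrrb rose from 1.02, 1.19 and 1.18 TPM to 2.55, 2.19 and 2.57 TPM, and Ppara, the nuclear receptor for fatty acids, from 1.97, 3.07 and 2.24 TPM to 5.09, 3.74 and 5.65 TPM. Their log2 fold changes were 0.85 and 0.86, and the call of Ppara was lost without the shared library, where it was 0.75 (adjusted p = 0.069), and without 6 h replicate 1 (0.82) or 6 h replicate 3 (0.75). Of the 20 tested PGC-1, ERR and mitochondrial regulators, these 4 rose and Pprc1, a PGC-1 relative induced by serum, fell; without the shared library 3 rose and 0 fell, and with median-of-ratios scaling 5 rose, with Perm1 added, and 0 fell.

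Genes that these factors are known to regulate had few calls at 6 h. The same held for all tested genes, of which 1.58% rose and 5.16% fell. Of 80 nuclear subunits of oxidative phosphorylation, 0 rose and 0 fell, with log2 fold changes between -0.38 and 0.35 and a median of -0.16, and the 22 enzymes of the tricarboxylic acid cycle gave 0 calls as well. Among 35 genes of fatty acid oxidation and PPAR targets, only Plin5 rose. With median-of-ratios scaling 3 did, where 2.68% of all tested genes rose. Plin5, which coats lipid droplets next to mitochondria, went from 9.09, 6.84 and 7.02 TPM to 18.9, 13.9 and 9.43 TPM without overlap (0.80 ± 0.26, adjusted p = 0.0365). Its call was lost without 6 h replicate 1 (0.56, adjusted p = 0.157), 6 h replicate 2 (0.78), 0 h replicate 2 (0.73) or 0 h replicate 3 (0.74). Pdk4, which blocks pyruvate entry into mitochondria, was at 117, 117 and 192 TPM at 0 h and at 515, 167 and 86.6 TPM at 6 h. These libraries overlapped, and replicate 1 of 6 h stood apart (0.50 ± 0.61, adjusted p = 0.577).

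**Figure D3:**
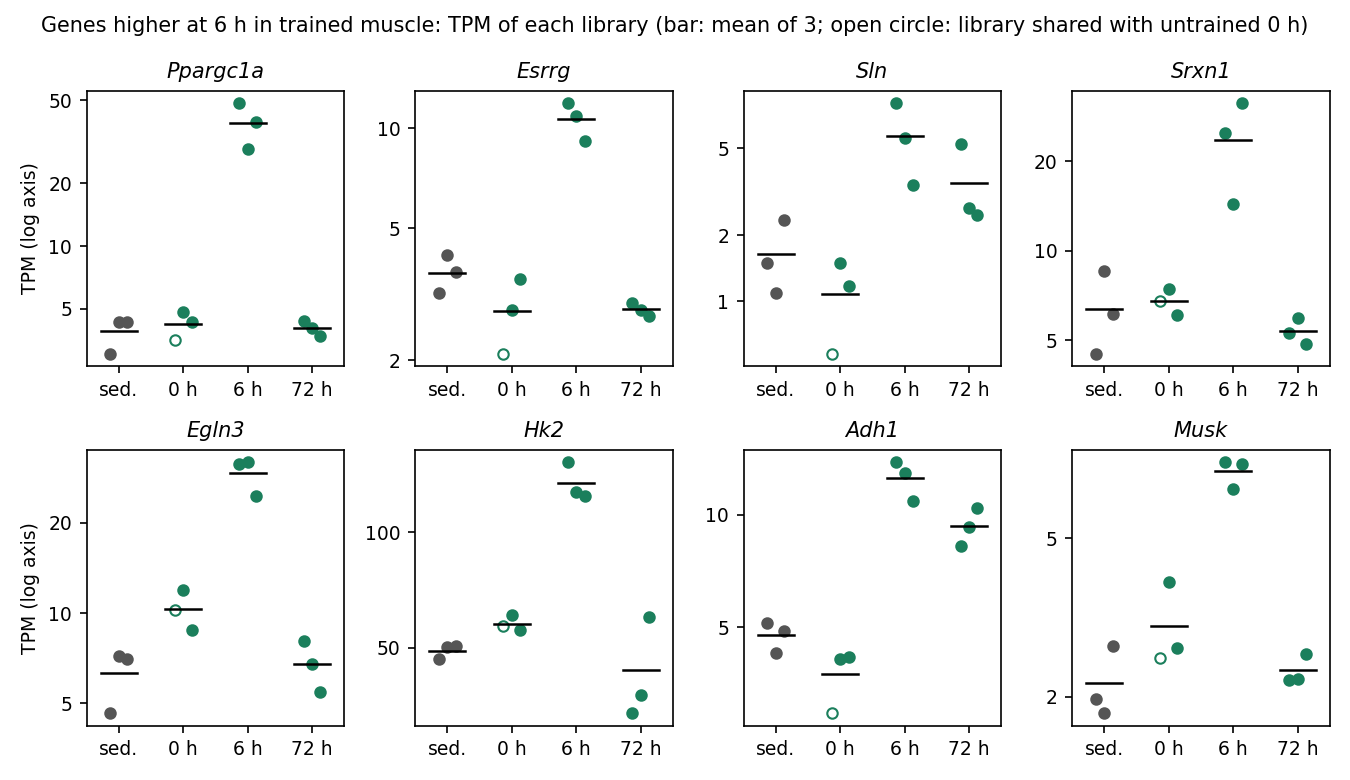
TPM of each library (log axis) for 8 genes that rose, in sedentary muscle and in trained muscle at 0 h, at 6 h and at 72 h, with bars at the mean of 3 libraries and an open circle for the shared library. All 6 h libraries lie above all 0 h libraries in each panel, from 29.1 to 48.6 TPM for Ppargc1a at 6 h, and at 72 h Adh1 lies above its 0 h libraries.

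Genes of glucose handling and insulin signalling moved in both directions, with 2 of 32 higher and 5 lower. The shares over all tested genes were 1.58% and 5.16%. Hk2, the hexokinase of muscle, rose from 56.9, 61 and 55.6 TPM to 152, 127 and 124 TPM, without overlap and with a log2 fold change of 1.21 ± 0.23 (adjusted p = 0.00197). Pfkfb4, which sets the level of a glycolytic activator, rose as well, by 0.80. Irs2, an insulin receptor substrate, fell from 14.9, 23.3 and 12.6 TPM to 2, 1.78 and 1.87 TPM, which was within the sedentary range of 1.93 to 2.22 TPM only for replicate 1. The α-arrestins Arrdc2, Arrdc3 and Arrdc4, regulators of membrane proteins, fell by 1.14, 1.14 and 1.08 on the log2 scale, and Trib1, a pseudokinase, fell by 0.69. The call of Arrdc2 was lost without 0 h replicate 2 (-0.96) or 6 h replicate 1 (-0.88). Txnip, a related inhibitor of glucose uptake, was at 194 to 255 TPM at 0 h and at 263 to 409 TPM at 6 h and was not called (0.51 ± 0.27, adjusted p = 0.182).

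Xdh, the purine-degrading xanthine dehydrogenase, rose from 5.16, 6.98 and 5.57 TPM to 17.8, 15.9 and 16.1 TPM. Adh1, an alcohol and retinol dehydrogenase, rose from 2.95, 4.11 and 4.17 TPM to 13.8, 12.9 and 10.9 TPM, and Cyp26b1, which degrades retinoic acid, rose from 0.314, 0.533 and 0.925 TPM to 2.72, 2.44 and 3.95 TPM. None of these groups overlapped, and the log2 fold changes were 1.43 ± 0.15, 1.63 ± 0.16 and 1.71 ± 0.34. For Cyp26b1 the 0 h libraries lay below the sedentary range of 1.59 to 2.96 TPM. Inmt, a methyltransferase, and Fmo2, a flavin monooxygenase, rose by 1.48 and 1.34 on the log2 scale.

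Sln, the sarcolipin that uncouples the calcium pump of the sarcoplasmic reticulum, rose from 0.575, 1.5 and 1.18 TPM to 8.05, 5.57 and 3.41 TPM (1.94 ± 0.35, adjusted p = 0.00136). It is a gene of slow and atrial muscle, and the summed TPM of 12 slow fibre genes overlapped between 0 h (392 to 867 TPM) and 6 h (478 to 1355 TPM) with 0 of 11 tested members called. The shared library was lowest for Sln at 0 h, and without it the log2 fold change was 1.68. Sidt2, a lysosomal membrane protein, rose from 11.9, 13.3 and 10.2 TPM to 58.9, 15.8 and 36.1 TPM, with a wide spread at 6 h, and its call was lost without 6 h replicate 1 (0.99, adjusted p = 0.0791). Serpinb8, a protease inhibitor, rose from 0.335, 0.581 and 0.256 TPM to 3.2, 1.09 and 1.35 TPM.

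The antioxidant and zinc list had 3 of 22 members higher and 1 lower, against 1.58% and 5.16% of all tested genes. Srxn1, the sulfiredoxin that repairs peroxiredoxins, rose from 6.79, 7.42 and 6.06 TPM to 24.8, 14.3 and 31.4 TPM (1.66 ± 0.28, adjusted p = 0.000834). Hmox1, which degrades haem, rose from 3.16, 3.62 and 2.97 TPM to 5.62, 4.29 and 6.18 TPM, and the zinc transporter gene Slc39a14 rose by 0.77, a call that was lost without the shared library (adjusted p = 0.0934), without 0 h replicate 3 (0.73) and without 6 h replicate 3 (0.60). Hmox1 was lost without 0 h replicate 3 (0.58) or 6 h replicate 3 (0.53). Nfe2l2, which encodes the factor NRF2 that drives this response, moved the other way, from 17.7, 23.7 and 16.5 TPM to 9.01, 8.19 and 8.78 TPM.

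At the neuromuscular junction, Musk, the receptor kinase that clusters acetylcholine receptors, rose from 2.51, 3.89 and 2.66 TPM to 7.77, 6.66 and 7.7 TPM. Its activator Dok7 rose from 3.5, 4.74 and 3.28 TPM to 6.83, 6.83 and 6.62 TPM. Neither gene had overlapping groups (log2 fold changes 1.18 ± 0.21 and 0.76 ± 0.12). Dok7 was chosen after its values were seen, as were Kcnj2, an inward rectifier potassium channel that rose by 0.86, Mamstr, a coactivator of MEF2 that rose by 0.68, and Cntfr, a cytokine receptor subunit that rose by 1.14.

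Of 14 tested myogenic regulators, Musk rose and 4 fell, and 3 of these fell under median-of-ratios scaling. By comparison, 1.58% of all tested genes rose and 5.16% fell. Id1, an inhibitor of myogenic bHLH factors, fell from 15.4, 15.1 and 11.9 TPM to 1.97, 3.51 and 1.84 TPM. Myog, the differentiation factor myogenin, fell from 6.18, 7.39 and 3.91 TPM to 1.82, 1.85 and 0.942 TPM. Both had groups that did not overlap, and Id3 fell by 0.76. Of 29 genes of atrophy, FOXO and autophagy, 1 fell, Depp1, whose call was lost without the shared library (adjusted p = 0.0522). The atrophy ligase genes Trim63 and Fbxo32 were not called, with log2 fold changes of -0.20 ± 0.17 and -0.24 ± 0.16, and neither was Mstn, which encodes myostatin (-0.15 ± 0.22).

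Signalling genes under cAMP, glucocorticoid and stress control fell in part, where 5.16% of all tested genes fell and 1.58% rose. In the CREB and SIK list 4 of 21 fell, namely Sik1, Pde4b, Prkag3 and Hdac4. Under median-of-ratios scaling 3 fell and 2 rose, and after rescaling 2 fell and 2 rose, as Hdac4 was lost under both and Prkag3 after rescaling. Hdac4 was also lost without 0 h replicate 2 (-0.56), 0 h replicate 3 (-0.57) or 6 h replicate 1 (-0.58). Sik1, a kinase that CREB induces and that holds CREB coactivators in check, fell from 19.3, 23.7 and 18.4 TPM to 1.89, 1.41 and 1.32 TPM, and Pde4b, which degrades cAMP, fell from 26.3, 34.9 and 26.1 TPM to 6.01, 8.16 and 6.94 TPM. Both lay apart at the time points, and the 6 h values of Pde4b were under the sedentary 10.5 to 13.8 TPM. In the glucocorticoid list 5 of 19 fell, namely Errfi1, Ddit4, Per1, Tsc22d3 and Cdkn1a, the last of which was lost without the shared library and under median-of-ratios scaling. Ddit4, an inhibitor of mTORC1, fell from 42.1, 49.3 and 20 TPM to 5.69, 5.21 and 5.78 TPM and was still above the sedentary 1.03 to 1.71 TPM. In the growth arrest list 6 of 15 fell and Gadd45a rose by 0.64, while its relatives Gadd45b and Gadd45g fell by 1.22 and 1.47. Without the shared library, under median-of-ratios scaling and after rescaling, 4 fell and 2 rose in each case. The call of Gadd45g was lost without 6 h replicate 1 (-1.11, adjusted p = 0.0552).

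Secreted and vessel-related genes moved in both directions. In the list of angiogenesis and hypoxia 5 of 20 fell and 1 rose, with a median of -0.05. Over all tested genes, 5.16% fell and 1.58% rose. Thbs1, the vessel-inhibiting thrombospondin, fell from 10.4, 12.9 and 18.7 TPM to 1.62, 1.56 and 0.889 TPM, and Ccn1, a matrix protein induced by YAP and serum response factor, fell from 56.3, 59.8 and 58.2 TPM to 9.44, 9.29 and 5.24 TPM. Ccn2 and Adamts1 fell by 2.19 and 1.85 on the log2 scale. The member that rose was Egln3, an oxygen-sensing prolyl hydroxylase and HIF target, from 10.2, 11.9 and 8.8 TPM to 31.3, 31.8 and 24.5 TPM (1.46 ± 0.24, adjusted p = 0.000653). Vegfa, the main growth factor of capillaries, was at 94.2, 97.7 and 106 TPM at 0 h and at 103, 87 and 105 TPM at 6 h, with overlapping groups (-0.02 ± 0.09, adjusted p = 0.894). Of 14 tested myokines, Hbegf rose by 0.79 while Igf2 and Fst fell by 0.64 and 0.60, and both falls were lost under median-of-ratios scaling. The call of Hbegf was lost without 6 h replicate 1 (0.56, adjusted p = 0.0699), and that of Igf2 without 0 h replicate 2 (-0.44) or 6 h replicate 3 (-0.53).

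Fibrillar collagens also fell, where 5.16% of all tested genes did. Among 11 markers of fibro-adipogenic cells, the matrix-forming stromal cells of muscle, 3 fell, namely Col1a1, Col3a1 and Col1a2. Col1a1 was at 11.7, 13.1 and 11.8 TPM at 0 h and at 3.34, 3.59 and 5.77 TPM at 6 h (-1.46 ± 0.29, adjusted p = 0.00242), with sedentary libraries between these at 7.41 to 9.33 TPM. Col3a1 and Col1a2 fell by 1.31 and 1.21. The call of Col3a1 was lost after rescaling and without 0 h replicate 2 (-1.19), 6 h replicate 1 (-1.11) or 6 h replicate 2 (-1.12). The summed TPM of the 11 markers was 528 to 611 at 0 h and 464 to 527 at 6 h, and that of 6 tenocyte markers was 58.6 to 66.6 and 27 to 40.4; 0 markers of either list were at 0 in all 6 libraries. In bulk muscle fewer cells of a type and less RNA per cell cannot be told apart, and the part of tendon and stroma in the collagen falls was not tested. The cytoplasmic actin genes Actb and Actg1 fell by 1.24 and 1.38 and the tubulin genes Tuba1a and Tubb2a by 1.24 and 1.30, all chosen after their values were seen and all called without the shared library and under both scalings.

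Marker levels of other cells were compared by their summed TPM. These overlapped between 0 h and 6 h for endothelial cells (118 to 132 and 106 to 137) and myofibres (79988 to 102703 and 80952 to 87411). They did not overlap for macrophages (60.2 to 60.8 and 40 to 58.4), satellite cells (37.9 to 47.8 and 31.5 to 32.3) or lymphocytes (1.71 to 2.52 and 0.825 to 1.08), nor for red blood cells (336 to 401 and 297 to 324) or pericytes (93.3 to 108 and 79.2 to 93.1), all lower at 6 h. Their part in the falls was not tested. These sums, and those of stromal and tendon markers above, were not rescaled for the larger mitochondrial share at 6 h. On the same scale, 34.6% of all tested genes had every 6 h library below every 0 h library. Of the tested markers, 0 of 9 macrophage genes were called, Cldn5, a tight junction gene of endothelium, fell by 1.75 among 11, and Sdc4, a syndecan of satellite cells, fell by 0.97 among 4. Markers of neutrophils and lymphocytes were below 1 TPM on average. Among 8 pericyte and smooth muscle markers, Pdgfrb rose by 0.68 and Acta2 fell by 0.95, and the latter was lost without the shared library. Scx, a tendon transcription factor, fell by 0.71 among 5 tenocyte markers, also lost without that library, and markers of adipocytes, red blood cells, Schwann cells and myofibres gave 0 calls.

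Several further lists were examined, beside 1.58% of all tested genes higher and 5.16% lower. The proteasome (37 genes), ribosome biogenesis (27) and cholesterol synthesis (21) had 0 in either direction, cytosolic ribosomal proteins had Rps21 lower among 78, splicing regulators had Tra2a lower among 28, and endoplasmic reticulum stress had Ppp1r15a and Creld2 lower among 25. Polyamine and amino acid genes had Slc38a2 and Sat1 lower among 18, fast fibre genes had Casq1 lower among 14, and Z-disc genes had Flnc higher and Ankrd23, Smtnl2 and Tcap lower among 19. Of these, the calls of Rps21, Creld2, Sat1, Casq1, Ankrd23, Smtnl2 and Tcap were lost under median-of-ratios scaling, and those of Rps21, Creld2, Sat1, Casq1, Slc38a2 and Flnc without the shared library. Without 6 h replicate 1, Flnc (0.38), Smtnl2 (-0.54), Casq1 (-0.54) and Creld2 (-0.51) were not called. The cold-inducible genes Cirbp and Rbm3 were not called (0.13 ± 0.16 and -0.29 ± 0.12).

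The mitochondrial genome moved unevenly, where 1.58% of all tested genes rose and 5.16% fell. Of its 37 tested genes, 10 tRNAs rose and the ribosomal RNAs mt-Rnr1 and mt-Rnr2 fell, by 0.71 and 0.72. Of the 13 protein genes 0 were called, with log2 fold changes from -0.08 to 0.51. In 7 of them all 6 h libraries lay above all 0 h libraries, which 6.59% of all tested genes did. mt-Th, the tRNA of histidine, was at 523, 544 and 425 TPM at 0 h and at 1005, 2713 and 3253 TPM at 6 h. Without the shared library 7 rose and 0 fell, and with median-of-ratios scaling 15 rose and 0 fell, so that the falls of the ribosomal RNAs were not stable. Short RNAs varied widely between libraries, with a median SD within 0 h of 1.61 for miRNA loci against 0.13 for protein-coding genes on the log2 scale.

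**Figure D4:**
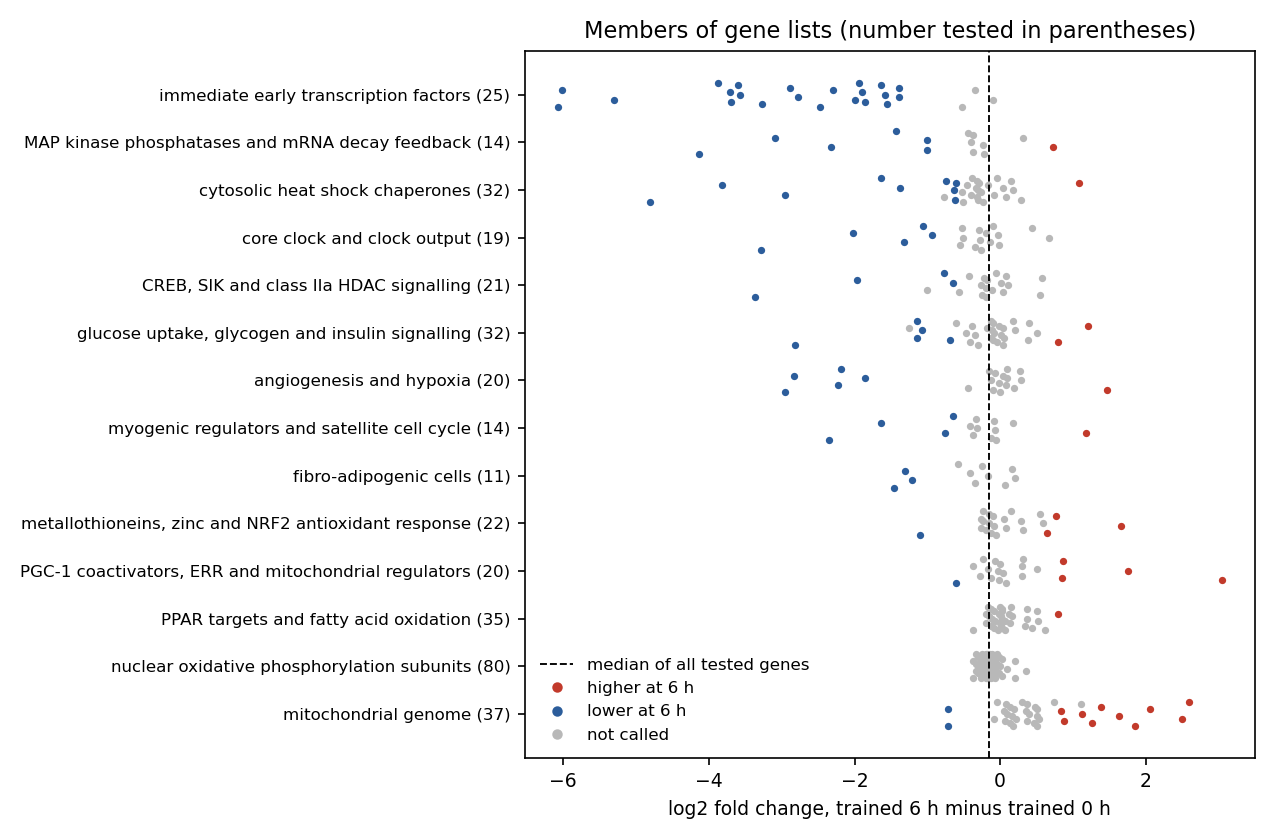
Log2 fold change from 0 h to 6 h in trained muscle (x axis) of the tested members of 14 gene lists (rows, number tested in parentheses), coloured by call, with a dashed line at the median of all genes (-0.15). The immediate early factors lie almost wholly to the left, with 22 of 25 lower, while the 80 subunits of oxidative phosphorylation stay close to the line.

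The difference between trained and untrained muscle in the step from 0 h to 6 h was tested after removing the shared library from each 0 h group (n = 2 each). Training and the amount of running in the bout cannot be told apart in this difference. Of 11779 genes, 39 were called (0.331%), 4 with a trained minus untrained difference above 0 and 35 with one below 0, and 30 of the 39 were protein-coding. In 21 of the 35, the log2 change was below 0 in trained and above 0 in untrained muscle. By the calls within each state, 16 of the 35 rose in untrained muscle and were not called in trained muscle, and 13 fell in trained muscle. The count rested on single libraries. Leaving out untrained 0 h replicate 2 gave 5, and leaving out untrained 0 h replicate 3 gave 18. Dropping untrained 6 h replicate 1, 2 or 3 gave 192, 14 and 21, and dropping trained 6 h replicate 1, 2 or 3 gave 71, 14 and 16. Dropping trained 0 h replicate 2 or 3 gave 20 and 45. At an unadjusted p under 0.05, 1297 genes differed.

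Inducible chaperones were among the genes with the largest differences. Hspa1b was at 102, 181 and 124 TPM in untrained muscle at 6 h, against 121 and 120 TPM at 0 h, so that the ranges overlapped there. The difference was -3.87 ± 0.63 (SE, log2, adjusted p = 0.0316, limma), with adjusted p between 0.000716 and 0.327 over the alternatives. Hspa1a differed by -3.35 and Dnajb1 by -2.89, and untrained muscle held Dnajb1 at 14.3, 20.2 and 16 TPM at 6 h against 1 to 1.38 TPM in trained muscle. The calls of Hspa1b and Hspa1a were lost without 6 h replicate 2 or 3 of trained muscle or 6 h replicate 2 of untrained muscle. That of Hspa1a was also lost without untrained 6 h replicate 3. The small chaperone gene Hspb1 reached 618, 827 and 720 TPM in untrained muscle at 6 h, yet its difference was not called (-1.70 ± 0.37, adjusted p = 0.0738).

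Early genes differed in part. Otud1 was at 34.5, 88.3 and 33.7 TPM in untrained muscle at 6 h and differed by -4.05 ± 0.71 (adjusted p = 0.0353). Btg2 and Nr4a3 differed by -2.46 and -2.13. Among fits that left out a 6 h library, the calls of Otud1, Btg2 and Nr4a3 were each lost without trained replicate 2, trained replicate 3 or untrained replicate 2. That of Nr4a3 was also lost without untrained replicate 3. Fits without a 0 h library held 1 library in that group, so only their sizes are given. The differences were then -2.37 to -2.56 for Btg2 and -2.01 to -2.24 for Nr4a3. For Fos, Egr1 and Atf3 the differences of -3.42, -2.86 and -3.61 were not called, with adjusted p of 0.103, 0.251 and 0.11, though untrained libraries at 6 h were all above the trained ones for each of them, from 8.51 to 18.5 TPM for Fos. Junb and Nr4a2 differed by -0.77 ± 0.22 and -0.60 ± 1.22, also without a call. Klf5, a factor of muscle remodelling, was below the expression filter and was at 0.555 to 0.863 TPM in trained and at 2.14 to 4.84 TPM in untrained muscle at 6 h.

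Of the cytoskeletal genes named, Enah and Flnc were highest in untrained muscle at 6 h. Enah, an actin regulator, was at 36.8, 55.5 and 42.4 TPM in untrained muscle at 6 h and at 14, 5.08 and 5.73 TPM in trained muscle, where the groups of 0 h and 6 h overlapped. Flnc, the filamin of the Z-disc, was at 232, 302 and 262 TPM against 122, 75 and 63.8 TPM. The differences were -2.89 ± 0.42 and -1.74 ± 0.28 (adjusted p = 0.0155 and 0.0283), with adjusted p reaching 0.239 and 0.321 over the alternatives. All 13 differences named were lost when the model was restricted to the compared groups. Hbegf, an EGF receptor ligand, rose in both states and differed by -1.87. Its call was lost without 6 h replicate 2 or 3 of trained muscle or 6 h replicate 2 of untrained muscle.

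The trained minus untrained difference was above 0 for Tmem25, D17H6S53E, Fads6 and Ntng2, at 1.12, 0.92, 0.81 and 0.77. Without the shared library, the trained and untrained changes were 0.53 and -0.59 for Tmem25 and 0.12 and -0.69 for Fads6, and neither trained change was called. The differences of Tmem25 and Fads6 were no longer called when replicate 2 or 3 of 6 h was left out in either state. That of Tmem25 was also lost without trained 6 h replicate 1 (1.08), and it was 1.00 to 1.25 with a 0 h library left out. D17H6S53E was at 17.1, 16.3 and 19.1 TPM at 6 h in trained and at 9.58, 10.4 and 12.6 TPM in untrained muscle. Its call was lost without trained 6 h replicate 3 (0.86) or untrained 6 h replicate 2 (0.90). Fads6, of the fatty acid desaturase family, was at 1.66, 1.76 and 1.52 TPM in untrained muscle at 6 h and at 3.11 to 3.54 TPM in trained muscle. The rise of Ppargc1a was not called as different, with 22.3, 33.1 and 25.9 TPM in untrained muscle at 6 h and a difference of 0.41 ± 0.31 (adjusted p = 0.656). Esrrg reached 5.01, 4.07 and 3.6 TPM in untrained muscle, below all trained libraries at 6 h, and missed the threshold (0.88 ± 0.19, adjusted p = 0.0719). Sln did so too (1.96 ± 0.53, adjusted p = 0.158), with 0.483 to 1.3 TPM in untrained muscle at 6 h.

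**Figure D5:**
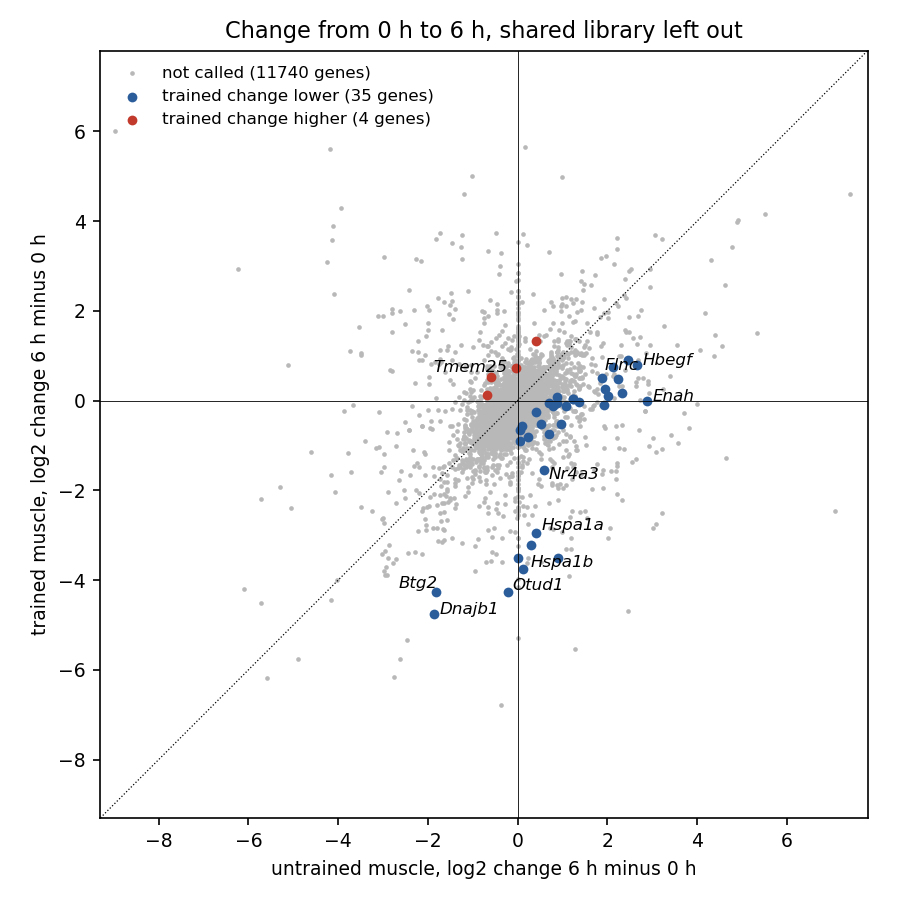
Log2 change from 0 h to 6 h in untrained (x axis) and trained muscle (y axis) for 11779 genes, with the shared library left out. The 35 genes with a difference below 0 lie below the dotted line of equal change, with Otud1, Hspa1a and Hspa1b near 0 on the x axis, and the 4 with a difference above 0 lie above it.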

How the data were processed

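RNA-seq libraries of quadriceps muscle were made from total RNA with a TruSeq kit. Per the labels and the study's methods, the authors aligned reads to GRCm39 with STAR 2.7.9, quantified them with Salmon 1.5.0 and deposited TPM values, scaled to a common total and corrected for transcript length. DESeq2 3.16 is named in the processing notes of the submitters, and no counts were used here. All 21 columns had a group, and 0 were left out. Depth per library is unknown, so no counting interval is given.

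Genes averaging 1 TPM or more over the 6 trained libraries of 0 h and 6 h were kept. TPM were transformed to log2(TPM + 0.5), which understates fold changes of low genes. A linear model with a mean per group (7 groups, 20 distinct libraries, 13 residual degrees of freedom) was fitted across genes with a variance trend (limma 3.58.1, R 4.3.3). The copy of the shared library in untrained 0 h was dropped. Genes were called at an adjusted p below 0.05 (Benjamini-Hochberg over 11779 genes) and an absolute log2 fold change of 0.585 or more. The difference between trained and untrained muscle was an interaction contrast without the shared library (12 residual degrees of freedom). The procedure was tested on simulated data.

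Named genes were the 12 largest rises and 12 largest falls among protein-coding genes called with and without the shared library and without overlap, up to 4 called members per list by size, a set of known exercise genes whatever their values, and the 6 largest differences between states in each direction; counts of up to 5 in a list were named. Zfp36l1, Dusp8, Dnajb4, Dnajb5, Hsph1, Ahsa2, Nr1d2, Cry2, Perm1, Egr2, Srf and Cebpd were named after their values were seen. Some list members are not reported here. The members and lists were chosen with earlier results of these data known. Alternatives were pseudocounts of 0.1 and 1, other filters, median-of-ratios scaling, rescaled TPM, protein-coding nuclear genes, a model of the compared groups alone, a replicate block, robust variance, no fold threshold and leaving out each library. Symbols were matched to GENCODE M39 (95.4%). Python 3.11.15 and matplotlib 3.10.9 were used for counts and figures.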

Additional observations from a re-analysis of the deposited data

Results flagged for a closer look

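The step from 0 h to 6 h differed between trained and untrained muscle for 13 of the named genes, by the interaction contrast of limma with the shared library left out. In the order of their sizes on the log2 scale, the trained minus untrained difference was below 0 for Otud1 (-4.05), Hspa1b (-3.87), Hspa1a (-3.35), Dnajb1 and Enah (-2.89 each), Btg2 (-2.46), Nr4a3 (-2.13), Hbegf (-1.87) and Flnc (-1.74). It was above 0 for Tmem25 (1.12), D17H6S53E (0.92), Fads6 (0.81) and Ntng2 (0.77). All 13 calls were lost when the model held only the groups compared, and none of the 13 differences changed its sign under any alternative run.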

How the results depend on the processing

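The genes that rose and fell in trained muscle numbered 186 and 608. They were 315 and 358 with median-of-ratios scaling, 475 and 318 with protein-coding nuclear genes only, 517 and 407 with rescaled TPM, 90 and 295 with a mean of at least 5 TPM, and 464 and 2624 with no threshold on the fold change. Leaving out each library gave 149 to 198 and 545 to 631. With the replicate number as a block they were 179 and 600. Same-numbered libraries did not deviate together (correlations of 0.0258, 0.0486 and -0.127). With 3 libraries a group, and the shared library among them, this cannot show whether the numbers pair the samples. The 39 genes that differed between trained and untrained muscle became 15 with the replicate block, 12 when the model was restricted to the compared groups, 22 with rescaled TPM, 25 with a mean of at least 5 TPM, 75 with the shared library kept in both 0 h groups and 64 with it kept in trained muscle only. Leaving out each library gave 5 to 192, and where this left 1 library in a group, that library was assumed to vary like the others. Of 2093 pairs of a named gene and a setting in trained muscle, 1938 kept direction and call. A further 147 lost the call, 8 gained it and 0 reversed. Of the 147, 28 were lost with only the compared groups modelled. By gene, 73 of the 110 called named genes had the same call in every setting. The depth of these libraries is unknown, and with 3 libraries a group a gene without a call may still have changed.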
